A study of Drosophila simulans with 22 samples.

Results

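The genes described here code for the proteins of the cytoplasmic ribosome, in embryos of the fruit fly Drosophila simulans. They were chosen from a list of 60 Drosophila melanogaster FlyBase gene numbers for the RpL, RpLP and RpS families and sta, and 52 of those numbers head a row of the gene table of 8460 genes. The other 8 are not analysed here. The embryos were of the reference genome strain w[501], untreated and laid in population cages. They were taken as whole embryos at ages of 0-1 h to 21-22 h, counted from egg laying in steps of 1 hour. Each of the 22 hours is 1 sample with no replicate, so an hour's stage and its sample cannot be told apart. RNA was profiled by RAMPAGE, which sequences cDNAs that reach the capped 5′ end of a transcript, and all 22 samples were barcoded, pooled and processed as a single library. The levels are in RPM, the reads of a gene scaled to the same total in every sample. Because each cDNA counts once, at its 5′ end, RPM of different genes can be compared with no division by length. The gene numbers are not paired with names in the tables used here, so each gene is called by its number, and large-subunit and small-subunit genes are described together. Stage marker genes could not be looked up for the same reason.

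The cytoplasmic ribosome makes the proteins of the cell from messenger RNA, and each particle carries a single copy of most of its proteins, so cells need them in near-equal amounts. In the fly embryo the first ribosomes and the first ribosomal protein transcripts come from the mother, and transcription of these genes by the zygote follows. Ribosomal protein transcripts of insects and vertebrates are known for starting within a short pyrimidine-rich initiator.

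The number of reads behind the RPM ran from 325359 at 12-13 h to 17332321 at 9-10 h, with a median of 2879693. Every gene of the family had reads in every hour. The fewest reads of a family member in a sample were 3, for FBgn0003517, and the median over all values was 1486 reads, for which counting error alone is small (median 0.037 on the log2 scale). The share of reads that fell in the listed genes was 77.8% to 86.1% up to 14-15 h and 62.2% to 69.7% from 15-16 h on.

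Most of the 52 genes were abundant transcripts of the embryo. Their mean RPM over the 22 hours had a median of 454, against 18.7 for all genes in the table, and 13 of the 100 genes with the highest mean were ribosomal protein genes. The highest member was FBgn0019936, the most abundant gene of the whole table, at 10123 RPM in its lowest hour, a median of 19463 and 28252 in its highest. FBgn0010409 had 4486, 14409 and 21639 RPM by the same measures. FBgn0003941 had 988, 8994 and 14430 RPM. These 3 genes together held 55.2% of the family's mean RPM.

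The levels were far from equal between members. Means ran from 9.47 RPM for FBgn0003517 to 19227 RPM for FBgn0019936, a ratio of 2030, and without the lowest and the 3 highest genes the ratio was still 38.9. A mean of at least 1000 RPM was reached by 13 genes, 37 lay between 100 and 1000 RPM, and 2 lay below 100 RPM. A gene's level counts only the reads assigned to it, for FBgn0003517 1131 in total. The part of unassigned reads in these differences was not tested. At the low end, FBgn0003517 had 2.05, 8.43 and 20.46 RPM as lowest, median and highest value, FBgn0023170 had 38.0, 72.3 and 184 RPM, and FBgn0011284 had 53.3, 94.98 and 191 RPM. The lowest hour of FBgn0023170 lay above the highest hour of FBgn0003517, so this lowest gene stood apart from all others, whereas the ranges of FBgn0023170 and FBgn0011284 overlapped. The order of the 52 levels was similar from hour to hour: the Spearman rho of the levels, across genes within this family, was 0.81 to 0.99 between adjacent hours (median 0.93 over 21 pairs) and 0.97 between 0-1 h and 21-22 h, with a lowest value of 0.72 over all 231 pairs of hours.

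**Figure D1:**
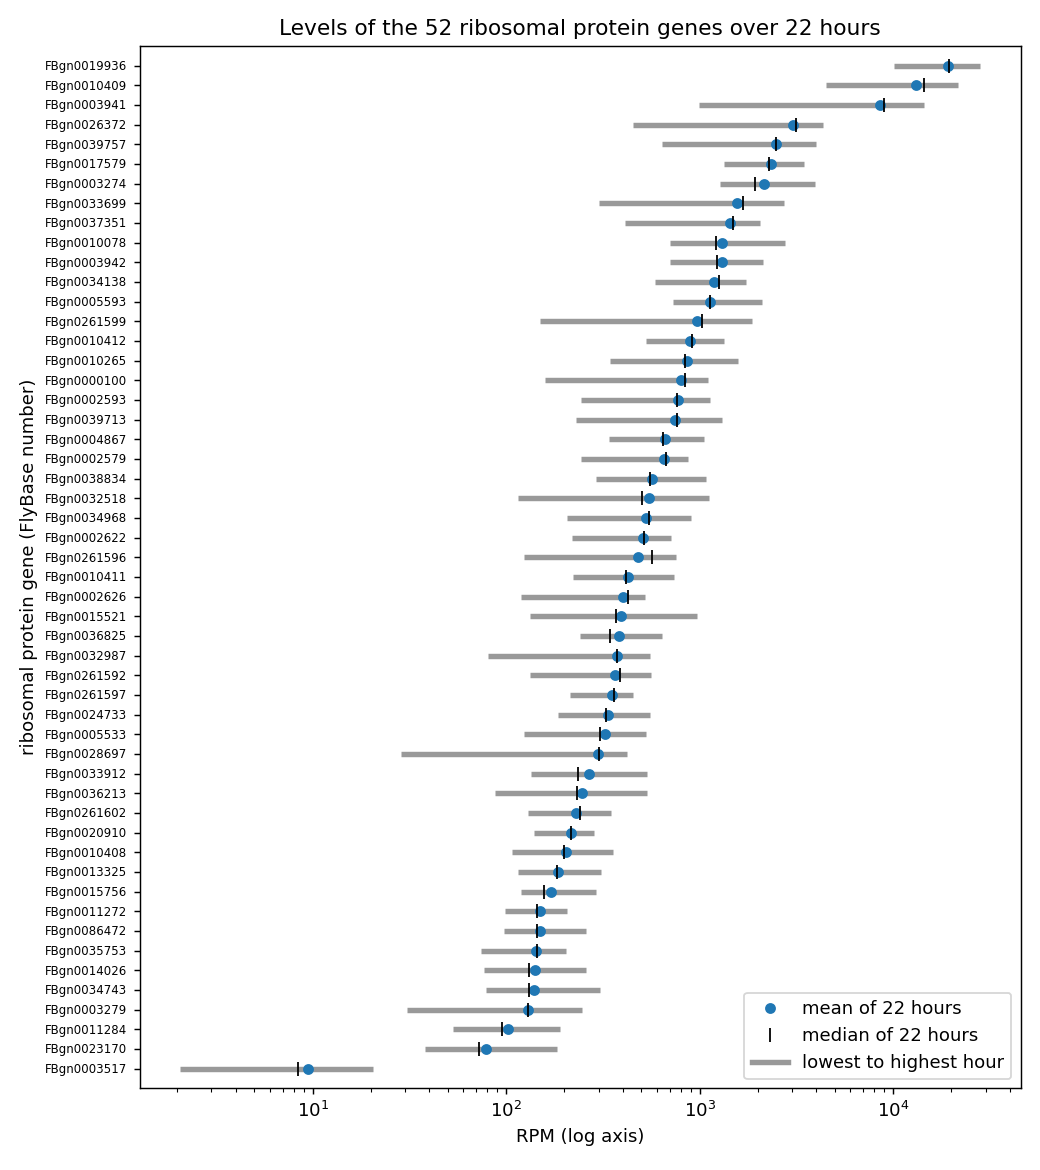
RPM (log axis) of each of the 52 ribosomal protein genes, ordered by mean: the grey bar runs from the lowest to the highest of 22 hours, the dot is the mean and the tick the median. The genes span 9.47 to 19227 RPM in mean level, and the hourly range of most genes covers less than 5-fold.

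Summed over the family, ribosomal protein transcripts took 7.40% ± 1.23 (SD over 22 hours) of all reads. The share was 7.36% at 0-1 h, 5.80% at 1-2 h and 7.33% at 2-3 h. It was highest at 4-5 h, at 9.58% (95% Wilson interval 9.54 to 9.61, covering counting error only), and lowest at 17-18 h, at 5.05% (5.02 to 5.08). It was 8.39% at 20-21 h and 7.76% at 21-22 h. The mean share was 6.83% over the first 3 hours, 9.28% over 4 to 8 h, 5.72% over 16 to 19 h and 7.60% over 19 to 22 h.

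Where the low lay depended on what the reads were scaled to. TMM factors, which scale each sample by its typical gene, gave the lowest share at 1-2 h (4.73%) and the highest at 20-21 h (10.9%), and DESeq2 size factors did the same (3.79% and 12.5%). Under these scalings the mean of 16 to 19 h was 8.19% and 9.74%, above that of the first 3 hours (6.35% and 5.02%), whereas it was below under total reads. As a percent of reads in the listed genes alone, the lowest share was 6.77% at 1-2 h and the highest 12.2% at 20-21 h. The mean share was higher over 4 to 8 h than over the first 3 hours under each of these scalings. Without the 3 most abundant genes, the rest of the family took 2.17% at 17-18 h to 4.50% at 13-14 h.

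**Figure D2:**
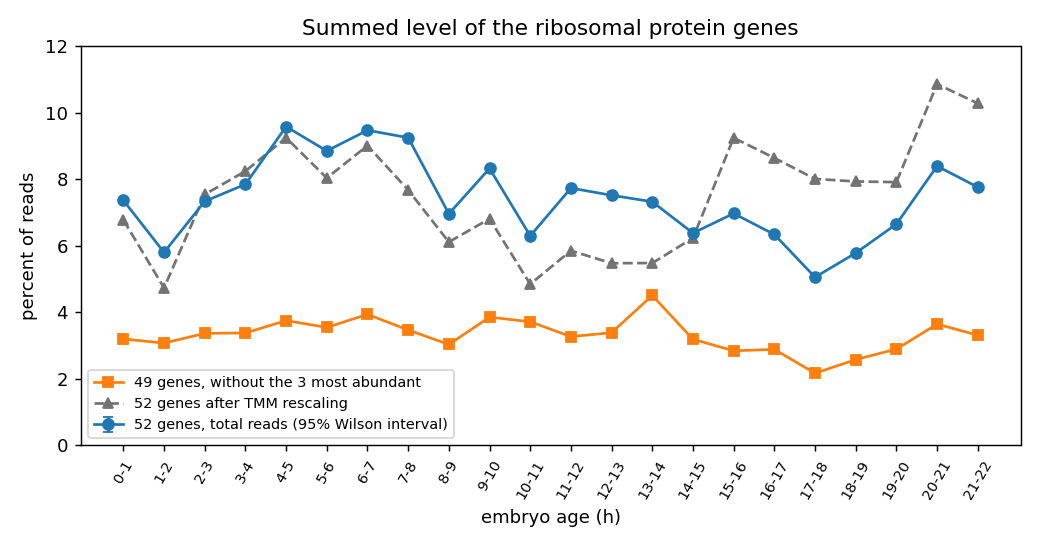
Percent of reads in ribosomal protein genes by embryo age, for all 52 genes by total reads (circles, 95% Wilson intervals, narrower than the symbols), without the 3 most abundant genes (squares) and after TMM rescaling (triangles). Total reads place the lowest share at 17-18 h (5.05%) and TMM places it at 1-2 h (4.73%).

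Most ribosomal protein genes stayed within a narrow range over the 22 hours. The ratio of the highest to the lowest RPM had a median of 3.91 over the 52 genes, and it was below 5 in 36 of them (69.2%). Of the 7074 genes of the table that reached 10 RPM, 8.47% had such a ratio, and of 1364 other genes with a mean of at least 100 RPM, 17.0% had one. The count of family members was also 36 under TMM factors, where the share of all genes was 12.9%, and 32 under DESeq2 size factors, where it was 16.1%.

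The steadiest gene was FBgn0020910, at 139 RPM in its lowest hour (0-1 h), a median of 217 and 285 in its highest (13-14 h), a ratio of 2.05. FBgn0011272 (ratio 2.10), FBgn0261597 (2.11), FBgn0015756 (2.45), FBgn0010412 (2.52) and FBgn0017579 (2.59) followed. Their means ran from 150.0 RPM for FBgn0011272 to 2349 RPM for FBgn0017579. The widest ratios were 14.7 for FBgn0028697 and 14.6 for FBgn0003941, and both came from single low hours given further on. A stricter limit, a ratio below 3, held for 15 members and for 1.03% of all genes that reached 10 RPM.

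A smooth curve through the hours changed little for these genes. With limma, a natural cubic spline of hour on log2(RPM + 1) called 17 of the 52 genes at an adjusted p of at most 0.05 (32.7%), where 92.4% of the 8249 genes tested were called. The fitted span, the distance from the lowest to the highest point of the curve, had a median of 0.79 on the log2 scale in the family (0.31 to 1.64) and of 2.82 over all genes tested. No member had a fitted span of 5-fold or more, against 5281 of all genes tested. The scatter of the hours around the curve was similar to that of other strong genes: its median SD was 0.42 in the family, 0.45 in other genes with a mean of at least 100 RPM and 0.56 over all genes tested.

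The number called moved with the scaling and with single samples. On leaving out each hour it was 11 (without 12-13 h, the shallowest sample) to 20 (without 0-1 h). It was 12 without 17-18, 20-21 or 21-22 h, and 18 under TMM factors. Under DESeq2 size factors it was 40, or 76.9% of the family, against 84.6% of all genes tested, so there the family was close to the background. No hour has a replicate, so each p compares a smooth trend with hour-to-hour scatter.

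The largest fitted span was that of FBgn0261596, 1.64 on the log2 scale (limma, adjusted p = 5.1e-04). It had 123 RPM in its lowest hour (12-13 h), a median of 564 and 751 RPM in its highest (6-7 h). Its fitted curve was highest near 5.5 h and lowest near 14.5 h. The low value of 9-10 h, 218 RPM, lay between 652 RPM in the hour before and 571 RPM in the hour after. The level was still 498 RPM in the sample of 11-12 h. By total reads, a longer low stretch followed from 12-13 h to 18-19 h, with 123 to 398 RPM. From 19-20 h on, the gene had 557 to 591 RPM. The length of the low stretch depends on the scaling. Division by the TMM factors (1.32 at 11-12 h, 0.75 at 15-16 h, 0.73 at 18-19 h) raises its end against 11-12 h.

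FBgn0003941 had a fitted span of 1.63 that did not pass the test (adjusted p = 0.059), although it was called under TMM and DESeq2 size factors (limma, adjusted p = 0.011 and 0.0077) and without 9-10 h, 10-11 h, 11-12 h or 14-15 h (adjusted p 0.028 to 0.044). FBgn0003517, the least abundant member, had a span of 1.58 (adjusted p = 0.034). That call rested on few reads, and it was lost under TMM factors (span 0.98, adjusted p = 0.34) and on leaving out any 1 of 8 hours (adjusted p 0.052 to 0.12): 9-10, 10-11, 12-13, 16-17, 17-18, 18-19, 20-21 or 21-22 h. The smallest spans were 0.31 for FBgn0261602, 0.35 for FBgn0039713 and 0.42 for FBgn0003942, none of which passed the test (adjusted p = 0.89, 0.98 and 0.74). Under TMM factors FBgn0003942 was just past the threshold (span 0.87, adjusted p = 0.0499), and DESeq2 size factors called all 3.

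**Figure D3:**
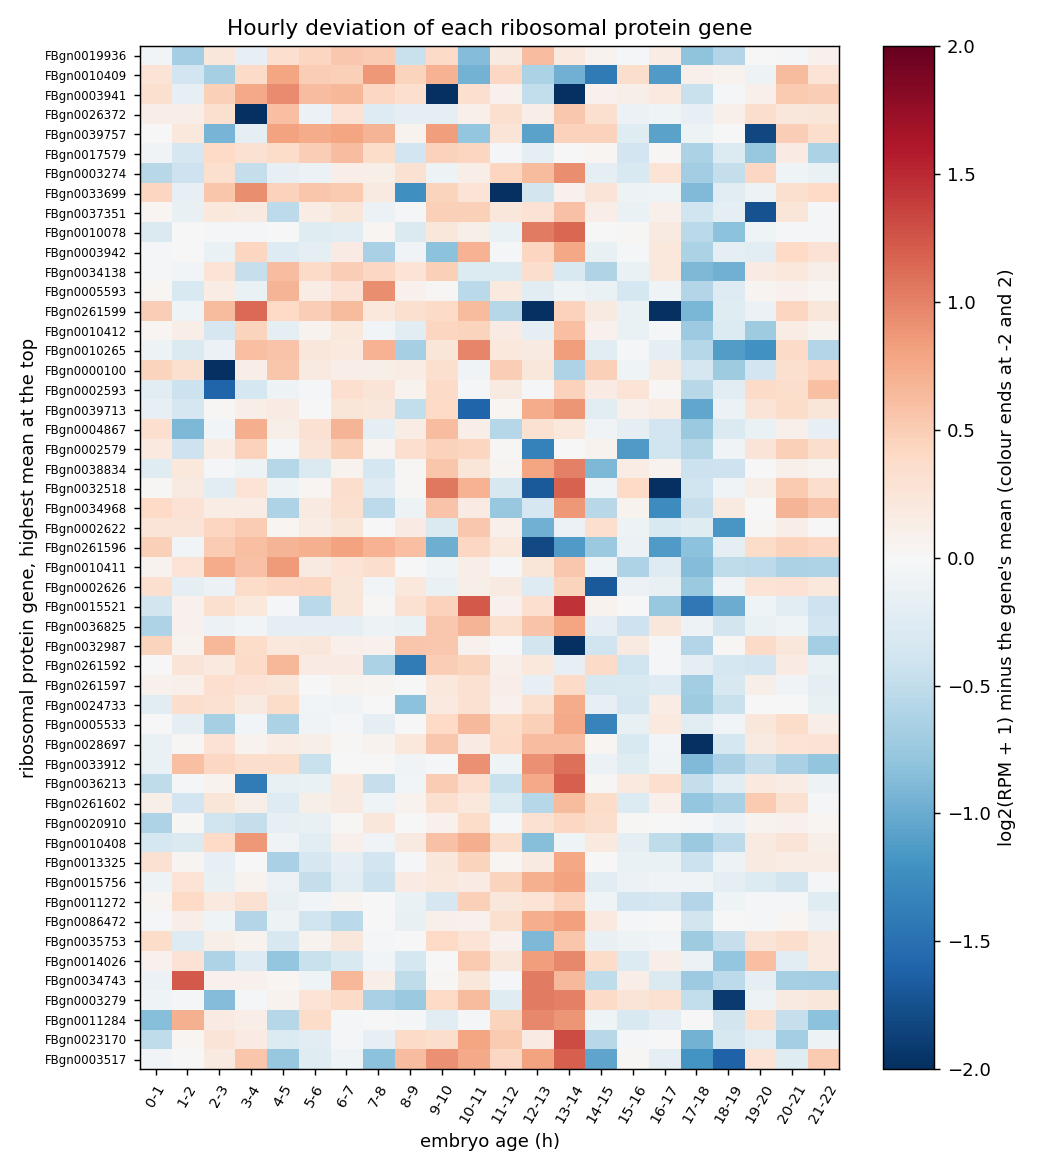
Deviation of each ribosomal protein gene from its own mean over 22 hours (colour, log2(RPM + 1) units, red above and blue below), with genes in rows from the highest mean at the top and hours in columns. The column of 13-14 h is mostly red and that of 17-18 h mostly blue, and isolated dark blue cells mark single low hours of single genes.

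Windows of hours gave each gene a direction, with 3 contrasts that share their windows and are set side by side. From 0-3 h to 9-12 h, 1 of the 52 genes rose and 0 fell, where 44.9% of the 8249 genes tested were called, 26.1% up and 18.8% down (limma, adjusted p of at most 0.05; at an unadjusted p below 0.05, 2 of the 52 passed in either direction). The median change was 0.19 on the log2 scale in the family and 0.16 over all genes. From 9-12 h to 19-22 h, 0 rose and 3 fell, where 52.1% of all genes were called, 14.4% up and 37.7% down, and the median change was -0.13 in the family against -0.75 over all genes. From 0-3 h to 19-22 h, 1 rose and 3 fell, where 67.2% of all genes were called, 26.4% up and 40.8% down, with median changes of 0.10 and -0.54. The count that rose from 0-3 h to 9-12 h was 0 without 9-10 h and 2 without 1-2, 12-13, 13-14, 14-15 or 15-16 h, and the count that fell from 0-3 h to 19-22 h was 1 without 1-2 or 21-22 h.

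The calls of the late window turned over with the scaling, and the median of all genes moved as well. TMM factors brought the median gene to -0.16 and -0.17 in the contrasts that end at 19-22 h, and then 11 and 7 ribosomal protein genes rose and 0 fell. DESeq2 size factors brought it to 0.05 and 0.22, and then 23 and 35 rose and 0 fell. Such factors divide all genes of a sample alike. The distance between the family and the median gene could therefore move only through the pseudocount and the filter, and it is no check of the scaling. The median family member lay above the median gene by 0.62 from 9-12 h to 19-22 h under total reads, by 0.73 under TMM and by 0.80 under DESeq2 size factors. From 0-3 h to 19-22 h it lay above by 0.64, 0.73 and 0.91. From 0-3 h to 9-12 h the distance was 0.03, -0.06 and 0.06. Under total reads, a pseudocount of 5 RPM lowered the distances of the contrasts that end at 19-22 h to 0.37 (from 9-12 h) and 0.49 (from 0-3 h). With edgeR on the recovered reads they were 0.79 and 0.99. The share of reads in the listed genes fell in the same late hours, and its part in these changes was not tested.

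FBgn0002593 was the member that rose. It had 644, 553 and 245 RPM in the first 3 hours, 963, 731 and 845 RPM at 9-12 h, and 968, 946 and 1125 RPM at 19-22 h. Its first 3 hours did not overlap with either later window. The change was 0.92 ± 0.31 (SE) at 9-12 h (limma, adjusted p = 0.017), lost without 2-3 h (0.49) or 9-10 h (0.82) and under TMM factors (0.69, adjusted p = 0.070). It was 1.19 ± 0.31 at 19-22 h (adjusted p = 0.0016), and this call held on leaving out each hour, with changes from 0.76 (without 2-3 h) to 1.45.

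FBgn0010411 fell from 427, 494 and 681 RPM in the first 3 hours to 281, 261 and 265 RPM at 19-22 h, with no overlap between the windows. The change was -0.96 ± 0.30 (limma, adjusted p = 0.0067). It was -0.49 under TMM factors (adjusted p = 0.10) and 0.08 under DESeq2 size factors.

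FBgn0033912 fell from 227, 377 and 331 RPM at 0-3 h and 244, 467 and 234 RPM at 9-12 h to 177, 158 and 143 RPM at 19-22 h, below every value of both earlier windows. The changes were -0.94 ± 0.37 against 0-3 h (limma, adjusted p = 0.028) and -0.91 ± 0.37 against 9-12 h (adjusted p = 0.042). They were -0.47 and -0.21 under TMM factors (adjusted p = 0.20 and 0.63), and turned to 0.095 and 0.071 under DESeq2 size factors. The call against 0-3 h was lost without 1-2 h (-0.78), 2-3 h (-0.88), 20-21 h (-0.93) or 21-22 h (-0.86). The call against 9-12 h was lost without 10-11 h (-0.59), 19-20 h (-0.99), 20-21 h (-0.90) or 21-22 h (-0.83).

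FBgn0010265 had 942, 1583 and 923 RPM at 9-12 h and 344, 1043 and 534 RPM at 19-22 h, so the windows overlapped through the 20-21 h sample. The change was -0.95 ± 0.39 (limma, adjusted p = 0.048) and lost its call on leaving out any 1 of 12 hours (all from 0-1 to 6-7 h, and 9-10, 10-11, 17-18, 19-20 and 21-22 h, with changes from -1.07 to -0.58). It was -0.25 under TMM factors and 0.04 under DESeq2 size factors. The whole count of 3 members that fell from 9-12 h to 19-22 h was equally loose: it was 1 without 1-2, 3-4, 5-6, 6-7, 9-10 or 21-22 h, 0 without 10-11 or 19-20 h, 5 without 14-15 or 15-16 h and 6 without 13-14 h, and 1 gene rose without 9-10 h. The remaining genes that fell, named because the counts are small, were FBgn0037351 from 9-12 h to 19-22 h (-0.91 ± 0.38, limma, adjusted p = 0.047) and FBgn0034743 from 0-3 h to 19-22 h (-0.91 ± 0.38, adjusted p = 0.038). FBgn0037351 had 1912, 1920 and 1605 RPM at 9-12 h and 410, 1626 and 1339 RPM at 19-22 h. Its windows overlapped, and the 410 RPM at 19-20 h was its lowest value of all hours. FBgn0034743 had 120, 306 and 139 RPM at 0-3 h and 114, 81.7 and 81.0 RPM at 19-22 h.

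Against the median gene, the family's course had several turns. The median member lay below the median gene, both as deviations from their own means, by 0.22 at 0-1 h and 0.26 at 1-2 h, and above it by 0.33 at 2-3 h and 0.37 at 3-4 h. It was below again by 0.22 at 7-8 h, 0.28 at 8-9 h and 0.22 at 11-12 h. At 12-13 h and 13-14 h it was above by 0.18 and 0.30. From 15-16 h to 21-22 h it was above in every hour, by 0.09 at 17-18 h to 0.53 at 20-21 h. TMM factors gave distances of -0.24 at 0-1 h, 0.39 at 3-4 h, -0.30 at 8-9 h and 0.60 at 20-21 h. These factors divide all genes of an hour alike, so the distances could differ from those of total reads only through the pseudocount.

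**Figure D4:**
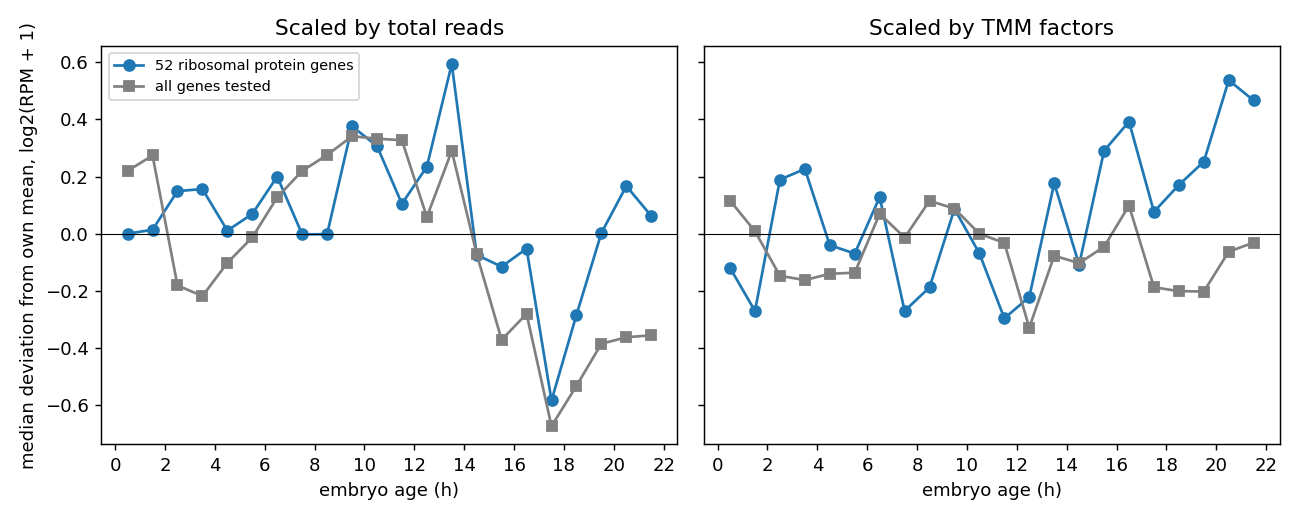
Median deviation from each gene's own mean, in log2(RPM + 1) units, of the 52 ribosomal protein genes (circles) and of all genes tested (squares) by embryo age, scaled by total reads (left) and by TMM factors (right). The 2 curves cross early, and from 15-16 h on the ribosomal protein genes lie above all genes in both panels. TMM factors shift both curves of an hour nearly alike, so the right panel is no separate check of their distance.

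The hour of 13-14 h stood out in the family. Of the 52 genes, 27 (51.9%) had their highest RPM there, against 8.06% of all genes, and the median deviation from the gene's own mean was 0.59 in the family and 0.29 over all genes. FBgn0015521, for example, had 973 RPM at 13-14 h against a median of 371 over the 22 hours. This depended on the scaling. Under TMM factors 5 members were highest at 13-14 h and 14 at 20-21 h, against 3.48% and 3.96% of all genes. Under DESeq2 size factors 6 and 19 members were, against 4.28% and 4.46% of all genes. At 17-18 h 12 members (23.1%) had their lowest value, against 13.2% of all genes, and the median deviation of -0.58 in the family turned to 0.08 under TMM factors.

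The members differed in how closely they followed a shared course. On log2(RPM + 1) over the 22 hours, which all genes share, the Pearson correlation of a member with the median of the other members had a median of 0.47 and ran from -0.43 to 0.85 (FBgn0015521). The 8197 genes outside the family had a median of 0.23 with the median member. The correlation was above 0.5 in 22 members and below 0 in 5, and under TMM factors, an alternative chosen after seeing the data, it was below 0 in 0 members, with a median of 0.46 and a lowest value of 0.033. The lowest were FBgn0003941 (-0.43), FBgn0032987 (-0.22) and FBgn0010409 (-0.16), so 2 of the 3 most abundant transcripts of the family were among those least like the rest. All 3 values moved with the samples of 12-13 h and 13-14 h. Without these, also an alternative chosen after seeing the data, the correlations were -0.02, 0.50 and 0.07. The median over the members was then 0.44, so FBgn0003941 and FBgn0010409 were still below it and FBgn0032987 was not. Of the 8197 genes outside the family, the 5 most like the median member reached correlations of 0.75 to 0.76, and 0 exceeded the family's own highest value.

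Single low hours gave the widest ranges. A value below 1/4 of the geometric mean of both neighbouring hours, a limit chosen after seeing the data, occurred 10 times, in 8 members (15.4%), whereas a value 4 times above occurred 1 time. These low and high values were 0.96% and 0.096% of the family's values. In other genes with a mean of at least 100 RPM they were 0.72% and 0.30%. Of the other genes with a mean of at least 100 RPM, 11.8% had such a low hour, so these hours were not particular to the family by this count. No hour held more than 2 of them.

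FBgn0026372 had 3590 RPM at 2-3 h, 450 RPM at 3-4 h (3045 reads, 95% Wilson interval 434 to 466 RPM) and 4339 RPM at 4-5 h, which was its highest value. Its strongest start site cluster, a stretch of genome in which read starts gather, was 9.34-fold below its neighbouring hours at 3-4 h, and its other clusters together were 3.43-fold below. FBgn0003941 had 1450 RPM at 9-10 h, from 25126 reads in the deepest sample, between 9477 and 9464 RPM. It had 988 RPM at 13-14 h, between 5351 and 8022 RPM. FBgn0028697 had 28.8 RPM at 17-18 h, between 264 and 215 RPM, from 56 reads. FBgn0000100 had 159 RPM at 2-3 h, between 942 and 826 RPM. In each of these hours the gap to both neighbours was wider than the counting interval, and without a replicate the sample's own part in them cannot be told apart from the stage.

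Transcription start site clusters, or TSCs, are the stretches of genome in which RAMPAGE read starts gather. For 48 of the 52 genes all 22 values were identical to the summed TSC values of a single entry of the start site list, which placed them in the r1.4 genome assembly. The other 4, FBgn0002593, FBgn0003941, FBgn0028697 and FBgn0033699, were not linked. The linked genes were spread over the genome, with 10 on chromosome arm 2L, 11 each on 2R, 3L and 3R, 5 on X and 0 on chromosome 4. FBgn0020910 and FBgn0086472 lay 6422 bp apart on 3R, and FBgn0034968 and FBgn0023170 lay 1801 bp apart on 2R.

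The strongest TSC of a ribosomal protein gene was wide. Its median width was 179 bp (quartiles 139 and 305, range 43 to 723), against 85 bp in 6180 other linked genes and 134 bp in the 796 of these with a mean of at least 100 RPM. A single TSC was listed for 12 of the 48 genes (25.0%), against 63.9% and 37.6% of the other genes. The further TSCs were mostly weak, since the strongest held at least 90% of the reads in 37 of the 48 genes (77.1%), against 87.0% and 91.0% of the other genes. The median of mean levels was 454 RPM in the family and 197 RPM in other genes of at least 100 RPM, and the part of read depth in the width and number of TSCs was not tested.

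In 9 members the strongest TSC held less than 80% of the reads. The lowest share was that of FBgn0003279, 48.0%, at 3R:23459884-23460181 on the + strand, with 35.1% of its reads in a TSC centred 1485 bp upstream, at 3R:23458491-23458605. Its hourly share ran from 29.4% at 2-3 h to 57.4% at 4-5 h. FBgn0011284 had 59.7% at 3L:12426826-12427548 on the + strand and 37.4% in a TSC centred 1077 bp downstream. FBgn0261592 had 64.0% at X:6220316-6220458 on the - strand and 23.8% in a TSC 398 bp downstream. FBgn0011272 had 66.0% at 2L:9758171-9758265 on the + strand and 33.7% in a TSC 464 bp downstream. No gene models of this assembly were used here, so the exon or UTR that holds each TSC is not given.

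In 6 of these 9 genes the next TSC lay within 1000 bp downstream of the strongest, at 398 to 531 bp, an arrangement found in 7 of 43 other genes of at least 100 RPM with a share below 80%. These 6 moved together, a pattern noticed in the data and given as a description. In each of them the strongest TSC had its highest share at 0-1 h, with a median of 85.6%, whereas the other 7 genes of this arrangement had a median of 61.9% there. The median of the 6 was 45.9% at 12-13 h and 75.7% at 21-22 h, and the other 7 genes had 57.0% and 64.5%.

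FBgn0010411 had the widest range of shares. Its strongest TSC, at 2R:14810134-14810281 on the + strand, held 86.5% of its reads at 0-1 h (95% Wilson interval 85.5 to 87.4, 4588 reads), 28.0% at 12-13 h (21.6 to 35.5, 157 reads), 37.1% at 13-14 h and 75.6% at 21-22 h. The remainder lay almost wholly in a TSC centred 399.5 bp downstream. FBgn0002622 had 84.7% at 0-1 h (83.8 to 85.5, 6332 reads) and 41.5% at 12-13 h (31.4 to 52.3, 82 reads), and FBgn0033912 had 89.7% (88.5 to 90.9) and 54.2% (46.3 to 61.9). The sample of 12-13 h is the shallowest, with 325359 reads, and the median share of the 6 genes was also low at 1-2 h (61.8%, in a sample of 3702524 reads) and at 17-18 h (51.4%, 1947264 reads). The other 7 genes had 53.6% and 42.2% in these hours, so the low values there were not particular to the family. The part of the sample in these shares was not tested.

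**Figure D5:**
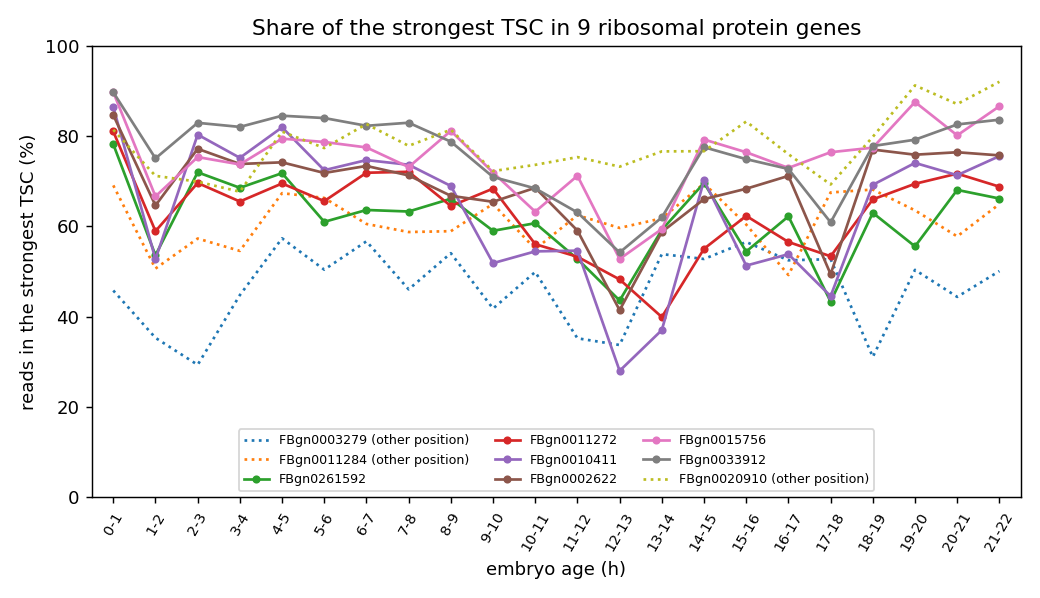
Percent of a gene's reads in its strongest TSC by embryo age, for the 9 ribosomal protein genes in which that share is below 80% over all hours; solid lines with dots are the 6 genes whose next TSC lies within 1000 bp downstream, dotted lines the other 3. The solid lines start highest at 0-1 h (median 85.6%) and reach a median of 45.9% at 12-13 h.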

How the data were processed

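RAMPAGE reads of whole D. simulans embryos, 1 barcoded sample per hour in a pooled library, were aligned by the authors to the r1.4 assembly of FlyBase, using STAR. The authors called TSCs on pooled reads, removed those over ribosomal DNA and deposited RPM per TSC and per gene, and the score column of the deposited TSC list was not used for any value. The gene table numbers genes by D. melanogaster FlyBase numbers, probably those of the ortholog. All RPM values were whole multiples of 1 read (tolerance 0.01), so reads were recovered.

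Genes reaching 2 RPM were tested on log2(RPM + 1), pseudocount 1, with limma 3.58.1 in R 4.3.3. The fits were a natural cubic spline (4 degrees of freedom) over the hours, and 7 windows of 3 or 4 hours. Hours of a window stand in for replicates, so a window p-value sets a difference of means against the spread of hours within windows. That spread mixes change of stage with differences between samples. P-values were adjusted by Benjamini-Hochberg over all genes tested, with calls at 0.05. Alternatives were TMM (edgeR 4.0.16) and DESeq2 1.42.0 size factors, edgeR's quasi-likelihood test on the recovered reads, pseudocounts of 0.1 and 5 RPM, no filter or 10 RPM, 3 or 6 degrees of freedom, no trend, and leaving out each hour. TSCs were tied to genes by identical values in all 22 samples. Fits were tested on simulated data. Genes named are those of highest and lowest level, span, ratio and correlation, the called genes with the largest window changes, and those with split TSCs; further genes in the passages on low hours and TSC shares were chosen after their values were seen, as was FBgn0015521 at 13-14 h. The members, lists and tests were chosen with earlier results of these data known. A table of signal aligned between species was not used, and lists of genes by name could not be matched.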

Additional observations from a re-analysis of the deposited data

How the results depend on the processing

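No paired analysis was possible because each hour has 1 sample and the labels carry no replicate numbers. The 17 ribosomal protein genes called with hour became 40 under DESeq2 size factors, 11 without the trend option and 11 with 3 degrees of freedom, and 11 to 20 on leaving out each hour. The gene that rose from 0-3 h to 9-12 h became 0 under TMM factors, 2 under DESeq2 size factors and 3 without 12-13 h and 13-14 h (an alternative chosen after seeing the data), and 0 to 2 on leaving out each hour. From 9-12 h to 19-22 h, the 0 that rose became 11 under TMM and 23 under DESeq2 size factors and 0 to 1 on leaving out each hour. The 3 that fell became 0 under both scalings and without the trend option, 1 with a pseudocount of 0.1 RPM, 6 without 12-13 h and 13-14 h and 0 to 6 on leaving out each hour. The median member changed by 0.57 and 0.85 under TMM and DESeq2 size factors. From 0-3 h to 19-22 h, the 1 that rose became 7 and 35 and the 3 that fell became 0 and 0 under TMM and DESeq2 size factors, with 1 to 3 that fell on leaving out each hour, and the median member changed by 0.56 and 1.12. DESeq2 size factors reversed FBgn0010411 (0.076), FBgn0033912 against 0-3 h (0.095) and 9-12 h (0.071), and FBgn0010265 (0.035). With a ratio below 3 in place of 5, 15 genes were in the steady class. The mean share of reads became 9.62% as a percent of the gene table. The causes of these shifts were not tested, apart from the smaller limit of the ratio and the smaller total of the gene table. Of the 260 values under the other alternatives, 211 kept their direction, call or range, as did 561 of 616 on leaving out an hour. Some of these values could not move. The change of the median member stays the same without the trend option, and when the hour left out lies outside both windows. Its distance to the median gene can move under TMM and DESeq2 size factors only through the pseudocount and the filter. Counts were scored loosely: 12 genes called with hour in place of 17, without 17-18 h, was scored as kept. With 1 sample an hour, changes shorter than a window cannot be tested, and at 12-13 h, the shallowest sample, FBgn0261596 rested on 40 reads.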
